A study of Glycine max with 6 samples.

Results

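Genes described as sulfate transporters were followed in soybean nodules under low and high phosphate supply, 5 genes out of 39712 listed in at least 1 library. They were one 2.1-like gene (Glyma.08G138600), 3 genes described as probable 3.4-like transporters (Glyma.08G207100, Glyma.15G014000 and Glyma.13G360000) and one 3.1-like gene (Glyma.03G156700). The genes were chosen from the supplementary table of genes that the study found to differ between the treatments. For these 5 genes the difference between treatments is therefore given as a description, with no p-value, and is no independent evidence of its direction. Where their calls in the fit over all genes are counted, the counts describe the list and test nothing. The table at hand was shortened. The study counts 4 sulfate transporters as up-regulated at low phosphate and 2 as down-regulated. Only 1 of the 5 genes here was lower at LP, so a down-regulated gene is missing. By the counts of the study no other gene that differs is missing, but sulfate transporters that did not differ were not collected. All counts, sums and shares hold for these 5 genes only. Nodules of genotype YC03-3, inoculated with rhizobium strain USDA110, came from plants supplied with 25 μM KH2PO4 (LP) or 500 μM KH2PO4 (HP). These units are those of the methods of the study, whereas the sample labels give 25 and 500 as mM. Both solutions contained magnesium and potassium sulfate, so sulfate was supplied in both treatments. There were 3 LP and 3 HP libraries, each made from nodules larger than 3 mm of 2 plants, taken at day 25.

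Sulfate transporters are membrane proteins that carry sulfate together with protons into cells and between compartments. In Arabidopsis, transporters of the second group work mainly in vascular tissue and act in moving sulfate between root and shoot. The third group is more varied. In Arabidopsis some of its members bring sulfate into plastids, in Lotus japonicus the nodule transporter SST1 is needed to supply sulfur to the bacteroids, and in rice the protein SPDT, close to the 3.4 type, carries phosphate rather than sulfate. Nodules need sulfur for the iron-sulfur clusters of nitrogenase, and sulfate enters metabolism through ATP sulfurylase. The substrates of the 5 soybean proteins were not measured here, and their names rest on protein matches.

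The libraries rested on totals of 17716117 to 18909026 fragments at LP and 17930721 to 18688901 fragments at HP. These were recovered, up to a common whole multiple, from the deposited FPKM values (fragments per length of a gene and per size of the library). Between 37252 and 37300 genes were listed in the LP libraries and between 37078 and 37478 in the HP libraries. Libraries within a treatment correlated across genes at r = 0.966 to 0.977 on the log2 scale, and libraries of different treatments at r = 0.911 to 0.936. Plants were pooled and libraries separate, so the spread between libraries covers pairs of plants within a single experiment. None of the genes with a description at hand was described as leghemoglobin, the defining protein of infected nodule cells, so the tissue label was not checked on it. The 2 genes described as early nodulin-70, looked up after the values were seen and listed by the study as differing, were found in every library, at 12.3 to 27.1 FPKM at LP against 62.2 to 104 FPKM at HP for Glyma.11G238500, and with means of 36.0 ± 13.7 FPKM at LP and 125 ± 32.0 FPKM at HP for Glyma.18G018900 (SD, n = 3 each). In whole nodules, a change in the number of cells of a type cannot be told apart from a change in the RNA of each cell.

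The 2.1-like gene was the most abundant of the 5 in every library. Glyma.08G138600 (Wm82.a2.v1, chr8:10617697-10624786, plus strand) had 15.2, 13 and 14.2 FPKM in the LP libraries, against 1.26, 2.03 and 1.16 FPKM in the HP libraries. The treatments did not overlap, and the lowest LP value was 6.40 times the highest HP value. The means were 14.1 ± 1.13 FPKM at LP and 1.48 ± 0.473 FPKM at HP (SD, n = 3 each), a ratio of 9.53. These values rested on 646, 584 and 644 fragments at LP and on 55, 87 and 52 at HP. The ratio of the summed fragments, each scaled to its library totals, was 9.55 with a 95% counting interval of 8.24 to 11.1 (exact Clopper-Pearson limits, counting error only). On the log2(FPKM + 0.1) scale the fold change of LP over HP was 3.21 with a standard error of 0.20 in limma. At LP, 82.6% of the genes above 0 had a lower mean FPKM than this gene, and at HP 32.4% did.

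HP replicate 2 had the highest HP value of the 2.1-like gene. Without that library the log2 fold change was 3.44, and without any other single library it lay between 3.06 and 3.27. At LP the coefficient of variation between libraries was 7.97%, against a counting error of 4%, and at HP it was 31.9%, against 12.4%.

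Transporters of this group are known from vascular tissue. The 3 xylem markers with a description at hand, which come from the same table of differing genes, also differed between treatments without overlap. No overlap was found for 44.5% of all genes tested as well, and the markers were weakly expressed. For the laccase-5-like gene the lowest LP value was 0.834 FPKM, close to the highest HP value of 0.771 FPKM. A laccase-5-like gene had 1.42 ± 0.871 FPKM at LP and 0.616 ± 0.18 FPKM at HP, and a laccase-17-like gene had 0.634 ± 0.0628 FPKM at LP and 0.231 ± 0.0838 FPKM at HP (SD, n = 3 each). The xylem cysteine proteinase 2-like gene was lower at LP, with 0.206 ± 0.0891 FPKM at LP and 0.852 ± 0.0767 FPKM at HP (SD, n = 3 each). The markers thus differed in both directions, and their summed level overlapped, at 1.61 to 3.35 FPKM at LP and 1.45 to 1.86 FPKM at HP. Their part in the transporter values was not tested.

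**Figure D1:**
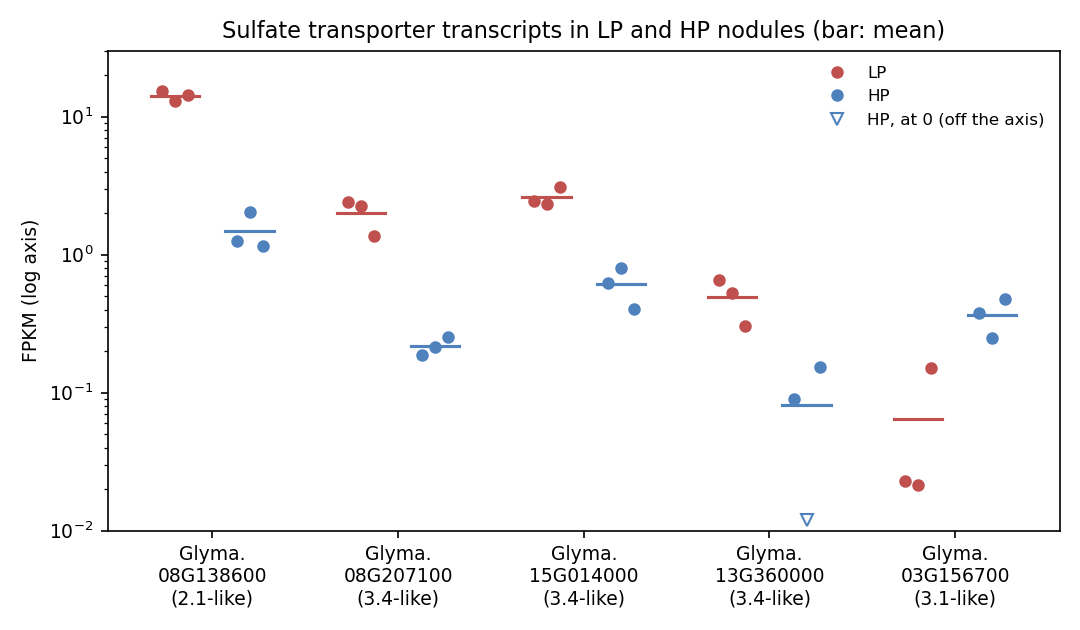
FPKM of each sulfate transporter gene on a log axis in the LP libraries (red, left) and the HP libraries (blue, right), with each point a library, each bar the mean of 3 and an open triangle for the library at 0. The LP points of the 2.1-like gene lie between 13 and 15.2 FPKM and its HP points between 1.16 and 2.03 FPKM, and only the 3.1-like gene has its LP points, at 0.0216 to 0.15 FPKM, below its HP points.

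The 3 genes of the 3.4 type all had higher values in LP nodules than in HP nodules, at levels that differed between them. Glyma.15G014000 (chr15:1133409-1138851, plus strand) had 2.46, 2.32 and 3.08 FPKM in the LP libraries, against 0.623, 0.796 and 0.404 FPKM in the HP libraries. Every LP value lay above every HP value, by at least 2.92 times. Its means were 2.62 ± 0.406 FPKM at LP and 0.608 ± 0.196 FPKM at HP (SD, n = 3 each), and its log2 fold change was 1.97 (standard error 0.27). The fragments numbered 104, 104 and 139 at LP and 27, 34 and 18 at HP, which gave a fragment ratio of 4.34 (counting interval 3.39 to 5.62).

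Glyma.08G207100 (chr8:16724687-16728969, minus strand) lies 6099900 bases from the 2.1-like gene on the same chromosome. It had 2.40, 2.26 and 1.36 FPKM in the LP libraries, against 0.189, 0.215 and 0.252 FPKM in the HP libraries. The treatments did not overlap, although LP replicate 3 was well below the other LP libraries. Its means were 2.01 ± 0.562 FPKM at LP and 0.219 ± 0.0321 FPKM at HP (SD, n = 3 each), a ratio of 9.17. The log2 fold change was 2.69 (standard error 0.29). At HP the gene rested on 8, 9 and 11 fragments, and the counting interval of the fragment ratio of 9.11 was 6.16 to 14.0. In ratio this gene was close to the 2.1-like gene, while its level at LP was 5.74 to 10.5 times lower in the same libraries.

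Glyma.13G360000 (chr13:44696143-44701512, minus strand) was the weakest 3.4-like gene. It had 0.651, 0.526 and 0.305 FPKM in the LP libraries, against 0.0905, 0 and 0.154 FPKM in the HP libraries. These values are 28, 24 and 14 fragments at LP and 4, 0 and 7 fragments at HP. The absence from HP replicate 2 allows a level of up to 0.0689 FPKM, the level of 3 fragments there. Summed over the libraries, 66 fragments at LP and 11 at HP gave a fragment ratio of 5.93 (counting interval 3.11 to 12.5). The treatments did not overlap, but with 2 libraries at 0.5 FPKM or more the gene stayed below the minimum for testing, which asked for 3 libraries.

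The 3.1-like gene went in the other direction. Glyma.03G156700 (chr3:37189825-37198694, minus strand) had 0.0229, 0.0216 and 0.15 FPKM in the LP libraries, against 0.379, 0.249 and 0.477 FPKM in the HP libraries. The fragments numbered 1, 1 and 7 at LP and 17, 11 and 22 at HP, so the lower LP values are those of single fragments. The lowest HP value was 1.66 times the highest LP value. The fragment ratio of LP over HP was 0.178, with a counting interval of 0.0770 to 0.366. No library reached 0.5 FPKM, and this gene was below the minimum as well.

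In the fit over all genes, 3 of the 5 genes passed the minimum of 0.5 FPKM in 3 or more libraries, and these 3 met the criteria of a call in limma (2-fold or more, adjusted p up to 0.05), all higher at LP. Glyma.08G207100 passed the minimum only through its 3 LP libraries. Of the 31181 genes tested, 7.73% were called, 3.34% higher and 4.39% lower at LP. This balance of 1041 higher and 1370 lower turned with the scaling, to 1404 higher and 676 lower after median-of-ratios and 1298 higher and 806 lower after quantile scaling, and to 751 higher and 602 lower with an added constant of 1. With no minimum, all 5 were called, 4 higher and 1 lower, against 6.85% of 39712 genes. The LP and HP values did not overlap for any of the 5 genes, which was also so for 44.5% of the genes tested and for 38.2% of all listed genes. Every LP value was above every HP value in 11.1% of the genes tested, and below in 33.4%. Since the list was drawn from the same contrast, nothing is read from these counts. The median log2 fold change of all tested genes was -0.18, so genes at 0 on this scale lay slightly above the middle of the distribution. The fold changes of the 4 genes higher at LP exceeded those of 98.5% to 99.6% of the genes tested, and that of the 3.1-like gene exceeded 0.776% of them. Places in the tails follow from the choice of the genes on this contrast. The 2 genes below the minimum were placed by their fold changes from the fit with no minimum.

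**Figure D2:**
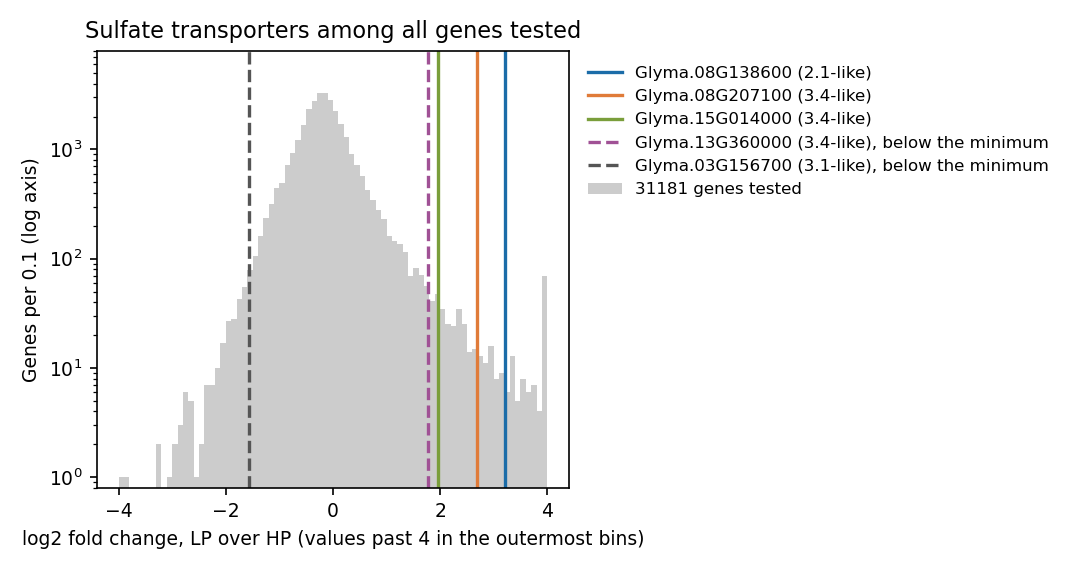
Number of tested genes by log2 fold change of LP over HP (grey, log axis) with the 5 sulfate transporter genes as lines, dashed where the gene lay below the FPKM minimum. The lines of the 2.1-like gene at 3.21 and of Glyma.08G207100 at 2.69 stand in the upper tail, and the 3.1-like gene stands at -1.56.

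With no minimum, the log2 fold change of Glyma.13G360000 was 1.77 (standard error 0.42). It was no longer called without LP replicate 1 (1.57), LP replicate 2 (1.70), HP replicate 1 (1.85) or HP replicate 2 (1.39). The log2 fold change of Glyma.03G156700 was -1.56 (standard error 0.38), and it was not called without LP replicate 1 (-1.39), LP replicate 2 (-1.39), HP replicate 1 (-1.53) or HP replicate 3 (-1.40). The direction could not turn in these fits, since the LP and HP values of both genes did not overlap. The added 0.1 draws the fold changes of these weakly expressed genes toward 0, and an added constant of 0.01 gave 3.13 for Glyma.13G360000, which was then not called, and -2.73 for Glyma.03G156700, which was. With an added constant of 1 neither gene was called.

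**Figure D3:**
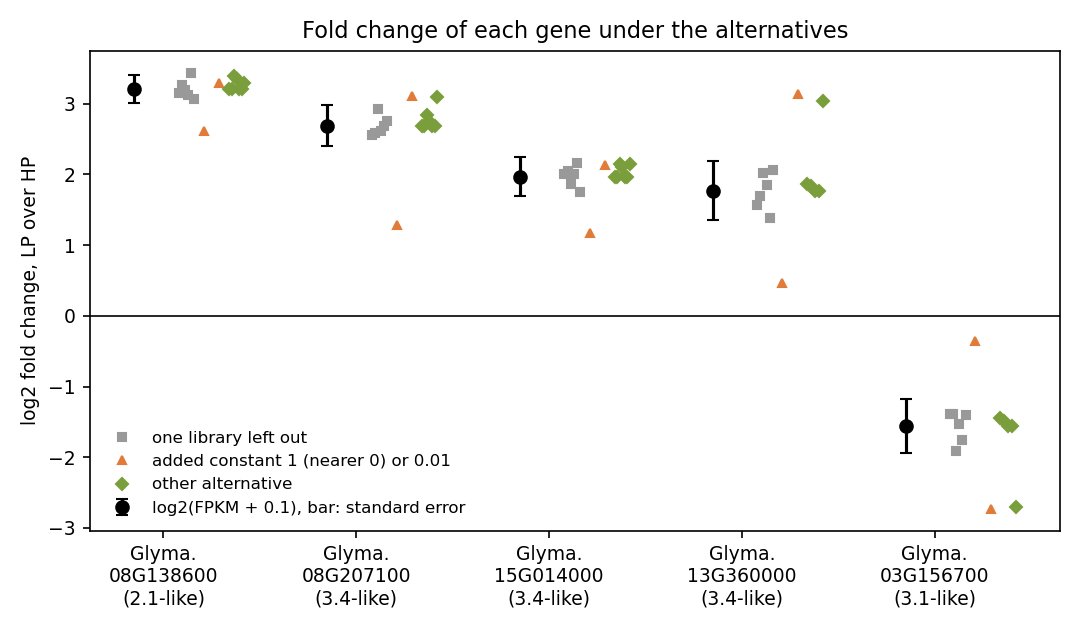
Log2 fold change of LP over HP for each sulfate transporter gene, with the standard error (black), without 1 library at a time (grey squares), with another added constant (orange triangles) and under the other alternatives (green diamonds). All points of the 4 genes higher at LP lie above 0 and all points of the 3.1-like gene below 0, between -2.73 and -0.36.

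FPKM is scaled to length, so levels of the 5 genes could be set side by side within a treatment. The lengths counted were similar, from 2332 to 2467 bases. At LP the order was the 2.1-like gene, Glyma.15G014000, Glyma.08G207100, Glyma.13G360000 and the 3.1-like gene. Among neighbours in this order, only the ranges of Glyma.15G014000 and Glyma.08G207100 overlapped, and the ratio of Glyma.08G207100 to Glyma.15G014000 was 0.973, 0.973 and 0.441 in the LP libraries. At HP the order was the 2.1-like gene, Glyma.15G014000, the 3.1-like gene, Glyma.08G207100 and Glyma.13G360000. There the 3.1-like gene overlapped in range with both of its neighbours. It was above Glyma.08G207100 in 3 of 3 HP libraries and below it in 3 of 3 LP libraries. With 3 libraries per treatment, an exact two-sided sign-flip test of 2 genes within a treatment cannot go below p = 0.25, so no test of the order is given.

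The summed level of the 5 genes was 20.8, 18.1 and 19.1 FPKM in the LP libraries, against 2.54, 3.29 and 2.45 FPKM in the HP libraries, a ratio of 7 between the means. The 2.1-like gene held 73.1 ± 1.36% of this sum at LP and 52.9 ± 7.66% at HP (SD, n = 3 each). The 3.1-like gene held 0.338 ± 0.387% at LP and 14.0 ± 6.01% at HP. The share of Glyma.15G014000 was 13.6 ± 2.24% at LP and 21.7 ± 4.54% at HP, and those of the LP and HP libraries overlapped in no case but were close, at 16.1% in LP replicate 3 and 16.5% in HP replicate 3. The shares of Glyma.08G207100, at 7.12% to 12.5% at LP and 6.55% to 10.3% at HP, overlapped between treatments, as did those of Glyma.13G360000. The ratio of the 2.1-like gene to Glyma.15G014000 within a library, which no rescaling of the library can alter, was 6.18, 5.59 and 4.61 at LP, against 2.03, 2.55 and 2.87 at HP. The ratio of the 2.1-like gene to Glyma.08G207100 overlapped, at 6.35, 5.74 and 10.5 at LP against 6.69, 9.41 and 4.60 at HP.

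**Figure D4:**
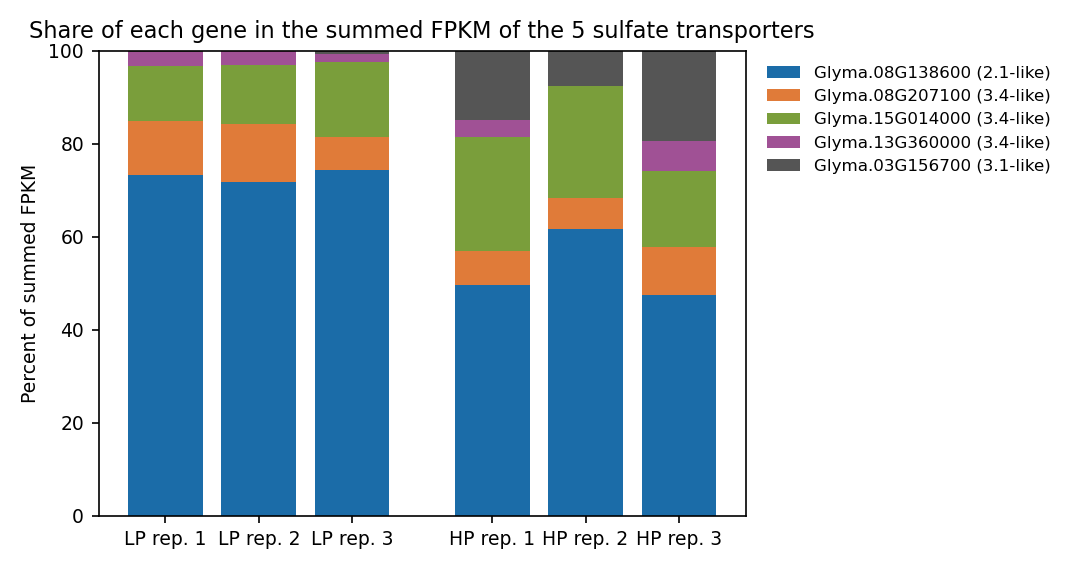
Percent of the summed FPKM of the 5 sulfate transporter genes held by each gene in each library, LP libraries left and HP libraries right. The 2.1-like gene (blue) takes 71.7% to 74.4% at LP and 47.4% to 61.7% at HP, and the 3.1-like gene (top) takes 0.11% to 0.785% at LP and 7.57% to 19.5% at HP.

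Within a treatment, the 5 genes deviated in different directions in single libraries. In LP replicate 3, Glyma.08G207100 and Glyma.13G360000 deviated by -0.49 and -0.51 from their LP means on the log2(FPKM + 0.1) scale, whereas Glyma.15G014000 and Glyma.03G156700 deviated by 0.24 and 0.69. In HP replicate 2, the 2.1-like gene and Glyma.15G014000 deviated by 0.46 and 0.38, while Glyma.13G360000, absent there, deviated by -0.76. That value depends on the added 0.1. For Glyma.08G207100 at LP the coefficient of variation was 28.0% against a counting error of 10.8%, and at HP it was 14.7% against 32.7%. For the 3.1-like gene at LP it was 114% against 57.7%.

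The genes next to the transporters on the chromosomes were taken without regard to their values, though after the transporters had been examined. Of the 20 genes that are the 2 nearest listed genes on each side of each transporter, at 599 to 27041 bases, 16 were tested and 0 were called in limma, against 7.73% of all genes tested. An unadjusted p under 0.05 in limma was reached by 6 of them, and the share over all genes was not computed. With limma voom on recovered fragments 0 were called, against 2506 of the 31181 genes tested. With 16 genes, nothing is read from these counts. The adjusted p was reached by 3 neighbours with less than 2-fold, against 25.7% of all genes tested, and all 3 were lower at LP. The median log2 fold change of the 16 was -0.33, beside -0.18 for all genes, and the range was -1.92 to 0.25. The lowest was that of Glyma.03G156900, at 19962 bases from the 3.1-like gene, with 0.587 ± 0.573 FPKM at LP and 1.74 ± 0.804 FPKM at HP (SD, n = 3 each). The standard error of this change was 0.91, and it was not called (adjusted p = 0.16 in limma). Glyma.08G207000, 599 bases from Glyma.08G207100, was lower by 0.45 on the log2 scale (standard error 0.13, adjusted p = 0.0356 from limma). It had 4.67 ± 0.370 FPKM at LP, against 6.44 ± 0.632 FPKM at HP (SD, n = 3 each). Neighbours were not examined after median-of-ratios scaling, which turned the balance of calls over all genes. The nearest neighbour of the 2.1-like gene, Glyma.08G138700 at 600 bases, was below the minimum, with 0.15 ± 0.118 FPKM at LP and 0.165 ± 0.0943 FPKM at HP.

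Among the steps of sulfur assimilation, 16 were searched by description in the shortened table, and 2 had a described gene. The study also reports a cysteine synthase gene as down-regulated at low phosphate. It was not among the described genes at hand, so the 2 genes do not give the direction of the pathway. Both genes had, like the transporters, been selected on this contrast. The ATP sulfurylase 1 gene Glyma.10G242600, for the enzyme that activates sulfate, had 554, 503 and 546 FPKM in the LP libraries, against 303, 331 and 257 FPKM in the HP libraries. The LP values all lay above the HP values, and its log2 fold change of 0.85 (standard error 0.13) was under 2-fold. After median-of-ratios rescaling it was 1.04 and the gene was called. The UDP-sulfoquinovose synthase gene Glyma.03G131100, for the enzyme that makes the head group of sulfolipids, had 31.3, 28.1 and 25.8 FPKM in the LP libraries, against 8.85, 6.22 and 8.32 FPKM in the HP libraries. Its log2 fold change was 1.86 (standard error 0.15), and it was called higher at LP. The level of ATP sulfurylase 1 at LP, 534 ± 27.6 FPKM (SD, n = 3), was far above the summed level of the 5 transporters. That sum leaves out all other sulfate transporters, so the level of the whole family is not known here.

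Among 1603 tested genes with a description at hand, those whose log2 values followed each transporter most closely over the 6 libraries were listed by Pearson correlation. For the 2.1-like gene they were Glyma.05G199400, described as a calcium-binding mitochondrial carrier protein SCaMC-2-like, and Glyma.01G230200, an uncharacterized protein (r = 0.999 for both). Glyma.08G207100 was followed most closely by Glyma.01G211500, described as ODORANT1, and by Glyma.17G086800, described as a short-chain dehydrogenase TIC 32 (r = 0.998 for both). Glyma.15G014000 was followed by a WAT1-related gene, Glyma.08G182900, and by the uncharacterized Glyma.14G070400 (r = 0.998 for both). For Glyma.13G360000 they were a phragmoplast orienting kinesin 1-like gene, Glyma.17G038700 (r = 0.993), and a coclaurine methyltransferase-like gene, Glyma.06G295700 (r = 0.992). The 3.1-like gene was followed by a lysosomal alpha-mannosidase-like gene, Glyma.16G126400, and by the aquaporin gene Glyma.13G333100 (TIP1-3), with r = 0.971 for both. The points share their treatments, and the described genes come from the table of genes that differed, so these values mostly carry the step between treatments.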

How the data were processed

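Nodule RNA was measured in 3 LP and 3 HP libraries. The authors indexed the Williams82.a2.v1 genome with Bowtie2 2.2.3, aligned cleaned reads with HISAT2 2.1.0 and estimated abundance with Cufflinks. Whether strand was used is not given in the sources used here. The deposited FPKM values list only genes above 0 in a library, so a missing gene was taken as 0. The authors' comparison with DESeq2 1.6.3 was not used for values.

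Library totals were recovered from exact ratios between low FPKM values, as the best whole numbers within a set range. The fragments of a gene were set to the lowest whole numbers compatible with a whole length (relative tolerance 1e-09). Such numbers were found for all 39712 genes, which summed to 99.65% to 99.68% of the totals. The true totals, and the true numbers of a gene, may be a whole multiple of these.

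The main test was limma 3.58.1 in R 4.3.3 (moderated with trend and robust options, statmod 1.5.0), two-sided, on log2(FPKM + 0.1) of the 31181 genes that reached 0.5 FPKM in at least 3 libraries. P-values were adjusted by Benjamini-Hochberg over these genes. A call needed an adjusted p up to 0.05 and an absolute log2 fold change of 1 or more. Tables were handled in Python 3.11.15 with pandas 2.3.3, numpy 2.4.6 and scipy 1.17.1, and plots drawn with matplotlib 3.10.9. The code was tested on simulated data.

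The genes, lists and tests were chosen with earlier results of these data known. Named genes were the 5 transporters, each called gene and the highest gene of a sulfur step, and the 2 described genes best correlated with each transporter. Descriptions came from the part at hand of the study's table of differing genes, which describes 1736 genes and in that part holds no other sulfate transporter. Markers of infected cells, uninfected cells, endodermis and phloem had 0 described genes, and xylem markers 3. The matched proteins of the 5 transporters (5 of 5) belong to RefSeq genes on the same chromosomes of Glycine_max_v4.0. Sequences were not used here, so reads shared among the 3.4-like genes were not tested, and protein identity and promoter motifs were not analysed. Alternatives were other added constants (1 and 0.01), other minimums (none and 1 FPKM), scaling by median of ratios or by quantiles, plain moderation, limma voom on fragments, the replicate number as a block, and leaving out each library.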

Additional observations from a re-analysis of the deposited data

How the results depend on the processing

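All 71 fold changes of the 5 transporters under the alternatives kept their sign, and 11 moved by more than the SD between replicates. Most signs were fixed in advance. The treatments overlapped for none of the 5 genes, so leaving out a library or changing the constant cannot turn the sign. Other minimums, plain moderation and the replicate block return the same fold change. Only median-of-ratios scaling, quantile scaling and limma voom could have turned it. With an added constant of 1 the log2 fold changes were 2.62 for Glyma.08G138600, 1.28 for Glyma.08G207100, 1.17 for Glyma.15G014000, 0.46 for Glyma.13G360000 and -0.36 for Glyma.03G156700. With 0.01 they were 3.11 for Glyma.08G207100, 3.13 for Glyma.13G360000 and -2.73 for Glyma.03G156700, and limma voom on fragments gave 3.09, 3.04 and -2.70 for the same genes. Leaving out 1 library gave 3.06 to 3.44 for Glyma.08G138600, 2.55 to 2.93 for Glyma.08G207100, 1.75 to 2.16 for Glyma.15G014000, 1.39 to 2.06 for Glyma.13G360000 and -1.91 to -1.39 for Glyma.03G156700. With no minimum 5 transporters were called in place of 3, and without an LP library 2, because Glyma.08G207100 then lay below the minimum. Of the sulfur genes, 2 in place of 1 were called after median-of-ratios scaling. Over all genes, 1353 in place of 2411 were called with an added constant of 1, and 1876 to 2336 without 1 library. The share of calls that were higher at LP was 43.2%, against 55.5% with the constant of 1, 67.5% after median-of-ratios and 61.7% after quantile scaling. Among the 3 transporters above the minimum alone, the 2.1-like gene held 75.3% of the sum at LP and 63.8% at HP. Same-numbered LP and HP libraries had correlations of deviations of 0.170, -0.02 and -0.153. Differently numbered libraries had -0.185 to 0.195. No pairing by number was thus seen, but so few libraries cannot show that it is absent. With the replicate block, 3 transporters and 2334 genes in all were called, so it changed no call of a transporter. Genes of a few fragments were limited by depth.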
